A study of Bos taurus with 86 samples.

Results

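The transcription factors GATA2, GATA3, TFAP2C, DLX3 and HAND1 were followed clone by clone in single bovine embryos measured on 2-colour cDNA arrays. Members were all rows of the array table whose only gene symbol in the platform annotation was one of these names. The rule used no measured value, but the members were chosen with earlier results of these data known. They made up 12 cDNA clones, each printed as 2 rows, out of 10723 clones in all, and stood for 5 of 4452 named genes. GATA2 had 4 clones, HAND1 had 3, GATA3 and TFAP2C had 2 each and DLX3 had 1. Of these, 9 clones were measured in at least 7 embryos of every group and were tested, out of 6908 clones tested in the series.

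The embryos fell into the groups IVF (15 embryos, read as in vitro fertilization), IVD (14 embryos, a group name that the labels do not spell out) and AI (14 embryos, read as artificial insemination). The title of the series poses the effect of in vitro maturation, fertilization and culture on single-embryo expression as the question. All 43 embryos carried the same handling in the labels: Trizol RNA, 3 rounds of linear amplification, and hybridisation against a common reference RNA amplified in 2 rounds, on 2 arrays with the dyes exchanged. Breed, age, medium, developmental stage and the makeup of the reference RNA were not given in the sources used here. Each embryo has its own label within its group. However, 4 IVD embryos (12_1, 12_2, 12_3 and 12_4) have a prefix in common, and AI embryos H1, H3 and H5 share a letter. Whether either set comes from one source is not stated, and no fit left out the H embryos as a set. The p-values therefore measure only the spread between these embryos.

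The trophectoderm is the outer epithelium of the blastocyst. It pumps the fluid that fills the blastocoel, gives rise to the trophoblast of the placenta, and in ruminants secretes interferon tau, the signal by which the dam recognises the pregnancy. In the mouse, Hippo signalling is low in the outer cells, which lets TEAD factors work there. CDX2, GATA3 and TFAP2C maintain the trophectoderm programme in these cells, while HAND1 and DLX3 act later, in trophoblast giant cells and in the placenta. In cattle, GATA factors have been linked to the transcription of interferon tau in trophoblast cells.

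Values are log2 ratios of embryo to reference, the mean of an embryo's 2 dye-swapped arrays, after each array was centred on its median. The labels do not say which dye is the numerator of the deposited ratios. Embryo over reference was taken as the likely direction from gene lists that leave out the 5 genes. Above 0 lay 19 of 21 trophectoderm clones (median 2.31) and 14 of 18 clones of cell junctions and blastocoel formation (median 2.00). From the list for oviduct and endometrium, 0 of 5 clones lay above 0 (median -4.29). These were clones of VIM, COL1A2 and DCN, the only 3 genes of that list on the array. Were the numerator the other dye, all signs in the text would be turned round. A ratio to the reference ranks embryos on the same clone and not one clone against another. Since whole embryos were used, fewer trophectoderm cells and less RNA per cell cannot be told apart.

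The arrays themselves differed between groups. Per array, 10255 to 15300 rows were measured in IVF, 13754 to 15618 in IVD and 10137 to 14119 in AI. The correlation between an embryo's dye-swapped arrays, after the turn in sign, was 0.717 to 0.911 in IVF, 0.589 to 0.767 in IVD and 0.816 to 0.912 in AI, so that no IVD embryo reached the lowest AI embryo. When the embryos were clustered by the part of each ratio that did not turn with the dyes, one cluster held 2 IVF, all 14 IVD and 5 AI embryos, another 12 IVF and 9 AI embryos, and 1 IVF embryo stood alone. The SD of an embryo's ratios over the rows measured on every array was 1.18 to 1.36 in IVF, 1.30 to 1.39 in IVD and 1.25 to 1.35 in AI. With these clusters as a block, IVD minus AI was 1.22 for GATA3 clone BF041614 (limma adjusted p = 7.99e-09) and 2.12 for TFAP2C clone AW462670 (adjusted p = 4.66e-10), on the log2 scale. For GATA2 clone AW462109 it was -0.31 with the block and did not pass (adjusted p = 0.107). The cluster of the IVD embryos held only 5 AI and 2 IVF embryos, so the block partly coincides with the groups. The blocked fits thus have few embryos to compare directly with IVD, and why a call was lost was not tested. Each called difference of a member clone that involves IVD is also given by dye. The number of arrays limits the precision.

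Markers of other lineages were sparse on the array. SALL4 was the only pluripotency gene of 14 listed, and its 2 clones lay on opposite sides of the reference (median -0.35). Clone BF045683 had means of 1.72 in IVF, 1.10 in IVD and 1.28 in AI. Clone BF040616 had means of -2.04, -1.60 and -2.55. Of 8 primitive endoderm clones with a value, 3 lay above 0 (median -0.18), as did 3 of 6 blood and immune clones (median -0.0043) and 1 of 3 cumulus and granulosa clones (median -0.092). The share of inner cell mass in these embryos was therefore not measured by more than 1 gene.

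**Figure D1:**
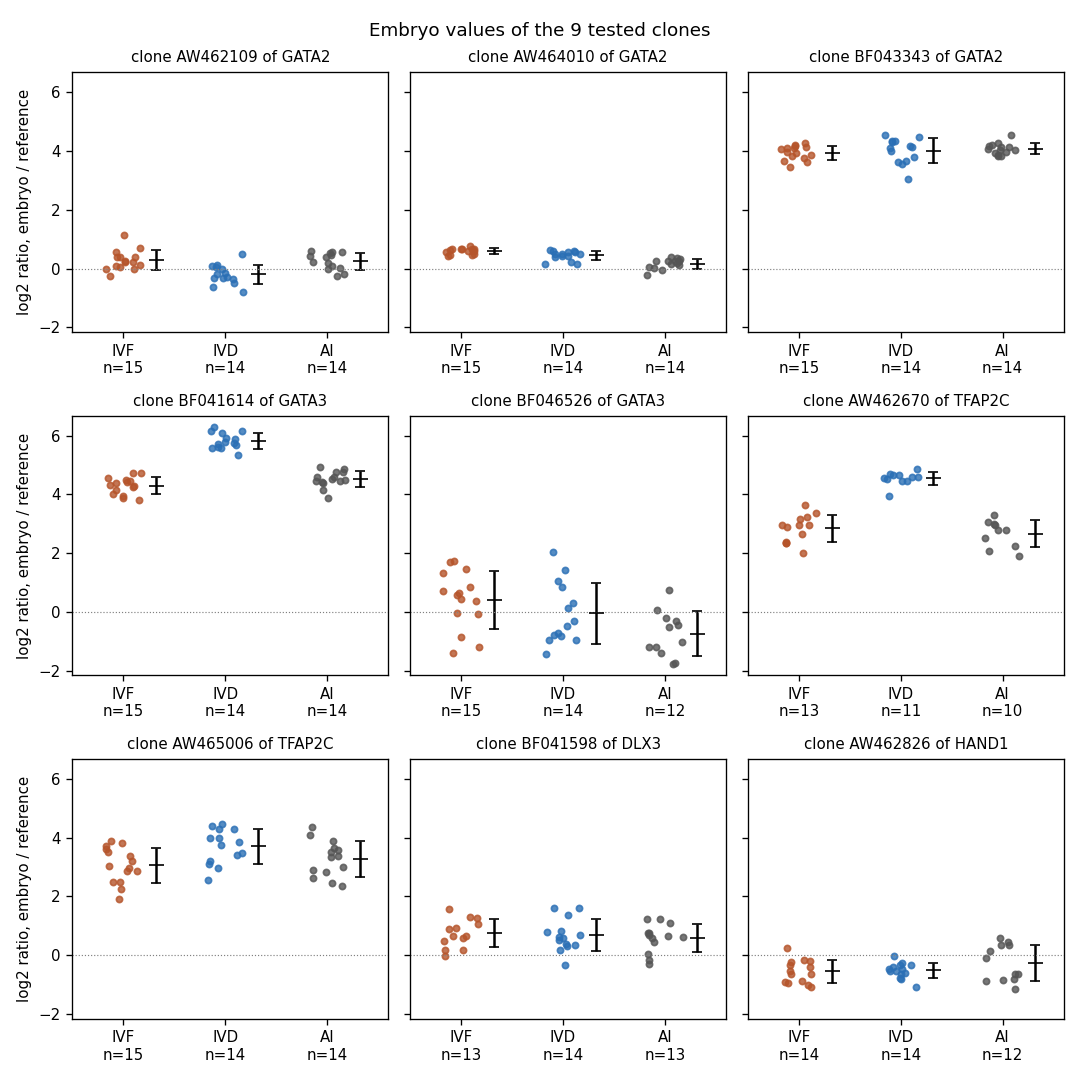
Log2 ratio of embryo to reference (y axis) in every embryo of the IVF, IVD and AI groups (x axis, with the number of embryos) for the 9 tested clones. Points are embryos, and the bar beside them is the mean with its SD. The IVD points of GATA3 clone BF041614 (5.33 to 6.28) and TFAP2C clone AW462670 (3.95 to 4.85) lie above every IVF and AI point. How many of all tested clones show this was not counted.

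In the comparison of IVD with AI embryos, 3 of the 9 tested clones were higher and 1 was lower. Over all tested clones the shares were 24.9% higher and 21.3% lower, so the family's counts are close to the background. The median difference over the 9 clones was 0.28, against 0.06 over all clones tested. In the comparison of IVF with AI embryos, 2 clones were higher (20.3% of all tested clones) and 0 were lower (17.7%), with a median of 0.03 against 0.04 over all clones. In the comparison of IVF with IVD embryos, 1 clone was higher (22.5%) and 3 were lower (24.8%), with a median of -0.03 against -0.0026. The IVD embryos enter 2 of these comparisons and the AI embryos 2, so the comparisons are not independent of each other.

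GATA3 is a zinc-finger factor that in the mouse works beside CDX2 downstream of TEAD4. Its clone BF041614 had a log2 ratio of 3.82 in the lowest, 4.31 in the median and 4.73 in the highest IVF embryo. The IVD embryos ran from 5.33 through a median of 5.75 to 6.28. The AI embryos ran from 3.87 through a median of 4.50 to 4.91. The IVD embryos thus stood above all others, with no overlap, while IVF and AI embryos overlapped over most of their range. How many of all tested clones separated groups without overlap was not counted, here or for the clones below. The group means were 4.29 ± 0.29 in IVF (SD, n = 15), 5.82 ± 0.27 in IVD (n = 14) and 4.52 ± 0.28 in AI (n = 14), which corresponds to 19.6-fold, 56.5-fold and 22.9-fold the reference signal.

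For this clone the difference of IVD from AI was 1.30 ± 0.11 (SE; limma, adjusted p = 9.28e-13), a 2.47-fold higher ratio in which 14 of 14 IVD embryos exceeded every AI embryo. In size it exceeded the differences of 97.6% of all tested clones. The difference of IVF from IVD was -1.53 ± 0.11 (adjusted p = 3.88e-15), and 15 of 15 IVF embryos lay below every IVD embryo. IVF and AI did not differ by the test (-0.23 ± 0.11, 95% interval -0.44 to -0.0082, adjusted p = 0.0921). Without AI embryo 13, the lowest of its group, this last difference was -0.28 with an adjusted p of 0.0352, and over the first row of the clone alone it was -0.30 with an adjusted p of 0.0482.

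The GATA3 difference depended in size on the scale. With the embryo in Cy3 it was 1.72 between IVD and AI, and with the embryo in Cy5 it was 0.89, both past the threshold (adjusted p = 5.07e-12 and 6.62e-07). Between IVF and IVD it was -1.94 in Cy3 and -1.10 in Cy5 (adjusted p = 2.92e-14 and 3.71e-09). Quantile normalization, which gives every array the same distribution of ratios, reduced IVD minus AI to 0.55 (adjusted p = 5.88e-05), and IVF minus IVD to -0.72 (adjusted p = 3.78e-07). Across the 14 alternatives the direction and the call stayed the same for both differences.

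The second GATA3 clone, BF046526, did not follow the first. Its IVF embryos ran from -1.40 through a median of 0.58 to 1.73. Its IVD embryos ran from -1.43 through -0.39 to 2.02. Its AI embryos, 12 with a value, ran from -1.76 through -0.77 to 0.75. All groups straddled the reference level and overlapped widely, although 10 of 15 IVF, 6 of 14 IVD and 2 of 12 AI embryos lay above 0. Here the IVF embryos were higher than the AI embryos by 1.17 ± 0.35 (adjusted p = 0.00811), a 2.24-fold difference in which 5 of 15 IVF embryos exceeded every AI embryo. By dye it was 0.88 in Cy3 and 1.75 in Cy5 (adjusted p = 0.0288 and 0.000513). The difference of IVD from AI was 0.69 ± 0.36 and did not pass (95% interval -0.024 to 1.41, adjusted p = 0.108). It did pass on the values as given (1.02, adjusted p = 0.0212), with the embryo in Cy3 only (0.90, adjusted p = 0.0224) and with the embryos of 1 array kept (0.89, adjusted p = 0.0387), and in Cy5 only it was 0.78 (adjusted p = 0.101). The difference of IVF from IVD was 0.47 ± 0.34 (95% interval -0.21 to 1.15, adjusted p = 0.255). By dye it was -0.021 in Cy3 (adjusted p = 0.963) and 0.97 in Cy5 (adjusted p = 0.0339).

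Embryos 12_1, 12_3 and 12_4 were among the 4 highest IVD embryos for BF046526, at 0.85, 2.02 and 1.42, while embryo 12_2 lay at -0.97. Without these 4 embryos the difference of IVD from AI was 0.34 (adjusted p = 0.449) and that of IVF from IVD was 0.83 (adjusted p = 0.0408).

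A test of the difference between clones of one gene was fitted over 693 same-gene clone pairs of 530 genes. It used only embryos with a value for both clones, so its values can depart from the gap between the separate fits. The 2 GATA3 clones differed from each other in the comparison of IVF with AI (BF041614 minus BF046526 -1.44 ± 0.37, adjusted p = 0.00329) and of IVF with IVD (-2.00 ± 0.36, adjusted p = 2.55e-05). They did not pass in the comparison of IVD with AI (0.56 ± 0.38, adjusted p = 0.273), where both had positive differences. Of the 5 pairs of GATA2, GATA3 and TFAP2C clones, 3 differed when IVF was set against AI, 4 for IVD against AI and 4 for IVF against IVD. Over all 693 pairs the shares were 26.8%, 33.8% and 35.6%. Clones of one gene thus moved apart in a minority of pairs over the array, and the counts of the 5 pairs lay above these shares. The pairs of GATA2 clones have clones in common, so the 5 pairs are not independent. Which part of a transcript each clone covers was not tested.

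TFAP2C encodes AP-2 gamma, a factor that in the mouse drives Cdx2 and keeps the trophectoderm. Its clone AW462670 had values on both arrays in 13 IVF, 11 IVD and 10 AI embryos, and the remaining embryos did not enter its test. The IVF embryos ran from 2.00 through a median of 2.96 to 3.64. IVD values ran from 3.95 through 4.58 to 4.85. AI values ran from 1.90 through 2.77 to 3.30. As with GATA3 clone BF041614, the IVD embryos stood above all others, and IVF and AI embryos overlapped. The means were 2.84 ± 0.47 in IVF, 4.54 ± 0.23 in IVD and 2.66 ± 0.46 in AI (SD), or 7.15-fold, 23.3-fold and 6.31-fold the reference signal.

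The difference of IVD from AI for AW462670 was 1.88 ± 0.18 (adjusted p = 1.29e-10), or 3.69-fold, with 11 of 11 IVD embryos above every AI embryo. Of all tested clones, 99.6% had a smaller difference. IVF embryos were lower than IVD embryos by 1.70 on the log2 scale (-1.70 ± 0.16, adjusted p = 2e-10), with 13 of 13 IVF embryos below every IVD embryo. IVF and AI did not differ by the test (0.18 ± 0.17, 95% interval -0.16 to 0.52, adjusted p = 0.408). Unlike the GATA3 clone, the size varied little with the dye: 2.06 with the embryo in Cy3 and 1.69 in Cy5 for IVD minus AI (adjusted p = 1.5e-10 and 4.28e-09), and -1.70 and -1.71 for IVF minus IVD (adjusted p = 3.34e-09 and 6.1e-10). Over all 13 alternatives IVD minus AI lay between 1.51 and 2.16.

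The other TFAP2C clone, AW465006, was also above the reference in every embryo but did not separate the groups. IVF values ran from 1.92 through a median of 3.03 to 3.90. In IVD embryos the ratio ran from 2.57 through 3.80 to 4.47. In AI embryos the ratio ran from 2.34 through 3.36 to 4.35. These ranges overlapped widely, and the means were 3.06 ± 0.60 in IVF, 3.70 ± 0.59 in IVD and 3.28 ± 0.61 in AI (SD), with IVD highest. IVF was lower than IVD (-0.63 ± 0.22, adjusted p = 0.0141), while IVD and AI did not differ by the test (0.42 ± 0.22, 95% interval -0.027 to 0.86, adjusted p = 0.118), except on the values as given (0.67, adjusted p = 0.0311), in Cy3 only and with the dye-bias clusters as a block (0.74, adjusted p = 0.0282). Nor did IVF and AI (-0.22 ± 0.22, 95% interval -0.65 to 0.22, adjusted p = 0.438).

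This clone's result depended on the dye. Its IVD mean was 4.39 with the embryo in Cy3 and 3.00 in Cy5, so that IVD minus AI was 1.00 in Cy3 (adjusted p = 0.00411) and -0.15 in Cy5 (adjusted p = 0.605). IVF minus IVD was -1.004 in Cy3 (adjusted p = 0.00268), and its call was lost in Cy5 (-0.26), with quantile normalization (-0.25) and without embryos 12_1 to 12_4 (-0.53, adjusted p = 0.0679). The 2 TFAP2C clones were compared over the embryos with a value for both. There the differences of IVD from AI were unequal by 1.63 ± 0.26 (AW462670 minus AW465006, adjusted p = 6e-06). Those of IVF from IVD were unequal by -1.18 ± 0.24 (adjusted p = 0.000215). For IVF against AI the clones did not differ by the test (0.45 ± 0.25, adjusted p = 0.181).

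**Figure D2:**
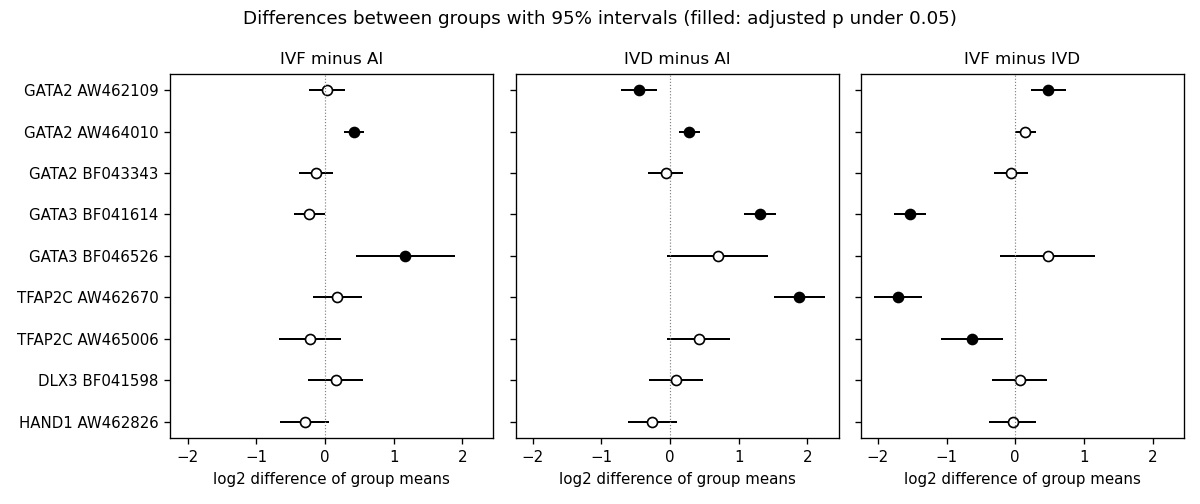
Log2 difference of group means (x axis) for the 9 tested clones (y axis), for IVF minus AI, IVD minus AI and IVF minus IVD. Lines are 95% intervals, and filled points have an adjusted p under 0.05; the GATA3 clone BF041614 and the TFAP2C clone AW462670 lie farthest from 0 where IVD is compared, at 1.30 and 1.88 for IVD minus AI.

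GATA2 is the closest relative of GATA3 in the trophoblast and binds the same core motif. Its clone BF043343 was far above the reference in every embryo and passed the test in none of the comparisons. In IVF embryos the ratio ran from 3.45 through a median of 3.99 to 4.26. The IVD embryos ran from 3.05 through 4.13 to 4.56. The AI embryos ran from 3.84 through 4.06 to 4.55. The means of 3.95 ± 0.24 in IVF, 4.01 ± 0.42 in IVD and 4.08 ± 0.19 in AI (SD) were 15.5-fold, 16.1-fold and 16.9-fold the reference signal. The differences were -0.13 for IVF minus AI (95% interval -0.36 to 0.10, adjusted p = 0.38), -0.07 for IVD minus AI (-0.30 to 0.17, adjusted p = 0.668) and -0.06 for IVF minus IVD (-0.29 to 0.17, adjusted p = 0.675).

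The dye mattered for this clone as well. IVF minus IVD was -0.55 with the embryo in Cy3 (adjusted p = 0.000888) and 0.40 in Cy5 (adjusted p = 0.00564), calls of opposite sign that the mean of both dyes cancels. IVF minus AI was -0.34 in Cy3 (adjusted p = 0.0459), and IVD minus AI was -0.32 in Cy5 (adjusted p = 0.0320). With quantile normalization the clone was lower in IVD than in AI (-0.39, adjusted p = 0.00117) and higher in IVF than in IVD (0.39, adjusted p = 0.000944).

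GATA2 clone AW464010 showed small differences with little spread. The IVF embryos ran from 0.43 through a median of 0.61 to 0.76. IVD values ran from 0.16 through 0.49 to 0.64. AI values ran from -0.22 through 0.22 to 0.39. Every IVF embryo thus exceeded every AI embryo, and 11 of 14 IVD embryos did. How many of all tested clones separated these groups in this way was not counted. IVF was higher than AI by 0.42 ± 0.07 (adjusted p = 3.67e-06), or 1.34-fold, and IVD was higher than AI by 0.28 ± 0.07 (adjusted p = 0.000904), or 1.21-fold. IVF minus IVD was 0.15 ± 0.07 and did not pass (adjusted p = 0.0687), though it did without IVD embryo 12_3 (0.16, adjusted p = 0.0499), without IVD embryos 12_1 to 12_4 (0.19, adjusted p = 0.0386) and with quantile normalization (0.19, adjusted p = 0.0144). With the embryo in Cy3 alone IVF minus IVD was 0.38 (adjusted p = 0.000743), and in Cy5 alone it was -0.090 (adjusted p = 0.388). Its within-group SD of 0.14 was among the smallest of the array: 0.174% of tested clones had a lower one. With the embryo in Cy3 alone, IVD minus AI was 0.13 and no longer passed (adjusted p = 0.255), and in Cy5 it was 0.42 (adjusted p = 0.000105).

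GATA2 clone AW462109 went the other way in IVD. IVF values ran from -0.25 through a median of 0.24 to 1.14. In IVD embryos the ratio ran from -0.78 through -0.23 to 0.50. In AI embryos the ratio ran from -0.24 through 0.30 to 0.59. Above 0 lay 12 of 15 IVF, 4 of 14 IVD and 12 of 14 AI embryos. IVD was lower than AI (-0.45 ± 0.12, adjusted p = 0.00257), and IVF was higher than IVD (0.48 ± 0.12, adjusted p = 0.0011). IVF minus AI was 0.03 ± 0.12 (95% interval -0.22 to 0.27, adjusted p = 0.876). IVD minus AI was -0.31 in Cy3 (adjusted p = 0.0503) and -0.59 in Cy5 (adjusted p = 0.000403), and IVF minus IVD was 0.37 and 0.60 (adjusted p = 0.0166 and 0.000248). With the deposited values as given, both calls were lost (-0.20 for IVD minus AI, adjusted p = 0.368, and 0.24 for IVF minus IVD, adjusted p = 0.284). There the median over all clones was itself 0.32 for IVD minus AI and -0.26 for IVF minus IVD.

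The 3 tested GATA2 clones differed from each other in all 3 pairs for IVD against AI, most between AW462109 and AW464010 (-0.73 ± 0.13, adjusted p = 1.27e-05). No single direction can therefore be given for GATA2.

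DLX3 is a homeodomain factor that the mouse placenta needs. Its clone BF041598 lay mostly above the reference, in 12 of 13 IVF, 13 of 14 IVD and 11 of 13 AI embryos. In IVF embryos the ratio ran from -0.027 through a median of 0.65 to 1.56. The IVD embryos ran from -0.35 through 0.60 to 1.62. The AI embryos ran from -0.29 through 0.64 to 1.24. The ranges coincided, and no comparison passed. IVF minus AI was 0.16 (95% interval -0.24 to 0.55, adjusted p = 0.549), IVD minus AI was 0.09 (-0.30 to 0.47, adjusted p = 0.729) and IVF minus IVD was 0.07 (-0.32 to 0.45, adjusted p = 0.797). The 3 highest IVD embryos were 12_1, 12_3 and 12_4 (1.62, 1.59 and 1.36). Without embryos 12_1 to 12_4, IVD minus AI was -0.16 (adjusted p = 0.506).

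HAND1 is a basic helix-loop-helix factor of mouse trophoblast giant cells. Its clone AW462826 lay mostly below the reference. The IVF embryos ran from -1.08 through a median of -0.59 to 0.24. IVD values ran from -1.07 through -0.51 to -0.027. AI values ran from -1.14 through -0.36 to 0.60. The SD was 0.39 in IVF (n = 14), 0.26 in IVD (n = 14) and 0.62 in AI (n = 12), so AI embryos were the most scattered. Above 0 lay 1 of 14 IVF, 0 of 14 IVD and 5 of 12 AI embryos. Those 5 AI embryos were 16, 17, H1, H3 and H5 (0.35, 0.14, 0.33, 0.60 and 0.45). The other AI embryos with a value ran from -1.14 to -0.0865, among them embryos 13 and 14 (-0.80 and -0.64). The 5 embryos were picked by their values, so no link with the embryo labels can be drawn. The cause of the AI scatter was not tested. No comparison passed: IVF minus AI was -0.29 (95% interval -0.64 to 0.049, adjusted p = 0.167), IVD minus AI was -0.26 (-0.60 to 0.082, adjusted p = 0.211) and IVF minus IVD was -0.03 (-0.36 to 0.29, adjusted p = 0.886).

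With the embryo in Cy3 alone, HAND1 clone AW462826 was lower than AI in both IVF (-0.62, adjusted p = 0.00233) and IVD (-0.40, adjusted p = 0.0389). In Cy5 the same differences were 0.08 (adjusted p = 0.822) and -0.10 (adjusted p = 0.744). The AI mean was 0.21 in Cy3 and -0.75 in Cy5. With the dye-bias clusters as a block, IVF minus AI was -0.39 and passed (adjusted p = 0.0479).

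The other 3 clones were measured almost only in IVD embryos and were not tested. GATA2 clone AW464282 had a value in 0 IVF, 12 IVD and 0 AI embryos (IVD -1.14 through a median of -0.074 to 0.22). HAND1 clone AW464968 had a value in 0 IVF embryos, in 14 IVD embryos (0.030 through 0.47 to 0.77) and in 1 AI embryo (0.38). HAND1 clone BF045744 had a value in 4 IVD embryos (-0.47 to 1.502) and in no other. A value almost only in IVD was common: of 3815 clones that were not tested, 858 were measured in at least 12 IVD embryos and at most 1 embryo of each other group.

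For these clones the sign of the IVD mean turned with the dye. The IVD mean of AW464282 was 1.504 with the embryo in Cy3 and -2.12 in Cy5, that of AW464968 was 1.83 and -0.92, and that of BF045744 was 2.32 and -1.53. The uneven numbers of measured embryos are therefore given as counts and not as a difference in expression. How the authors chose the spots that carry no value was not given in the sources used here.

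**Figure D3:**
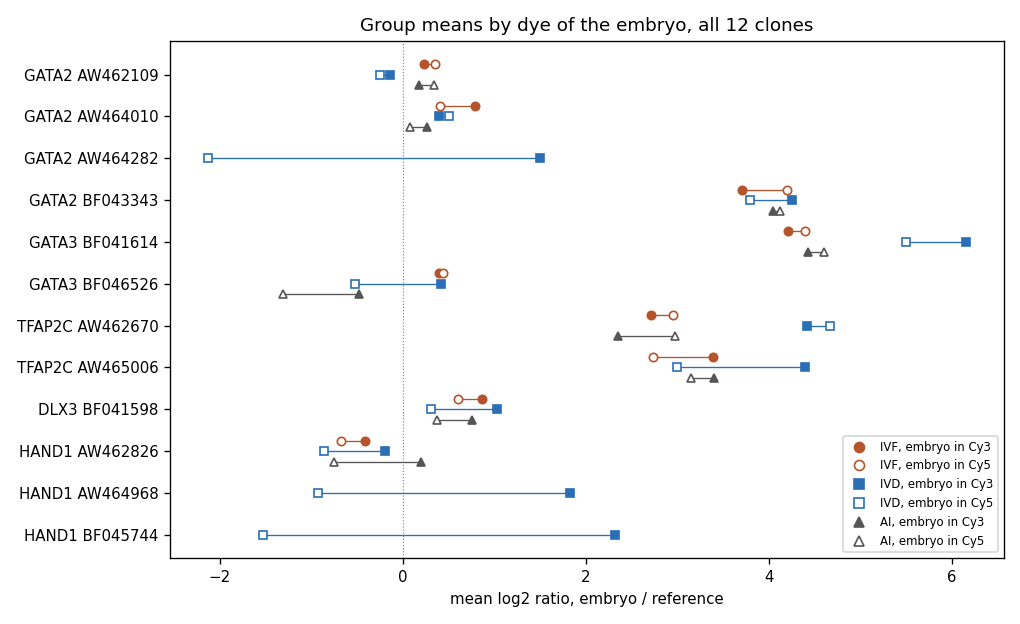
Group mean log2 ratio (x axis) of all 12 clones (y axis), filled where the embryo was labelled with Cy3 and open where it was labelled with Cy5, for groups with at least 5 arrays per dye. The IVD means of the 3 untested clones lie on opposite sides of 0 by dye (1.504 and -2.12 for GATA2 clone AW464282), whereas those of GATA3 clone BF041614 lie at 6.15 and 5.49.

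Embryos of one group varied more for some clones than for others. The within-group SD was 0.95 for GATA3 clone BF046526, above that of 98.3% of tested clones, and 0.60 for TFAP2C clone AW465006 (82.3%). It was 0.51 for DLX3, 0.44 for HAND1 clone AW462826, 0.41 for TFAP2C clone AW462670, 0.32 for GATA2 clone AW462109, 0.30 for GATA2 clone BF043343 and 0.28 for GATA3 clone BF041614, against a median of 0.41 over all clones. For BF046526 the embryos kept their order between the dyes (Pearson r of deviations from the group means 0.894 over 42 embryos), so its spread was repeated on both arrays of an embryo. For BF041614 that correlation was 0.164 and for AW464010 it was -0.013 (43 embryos each). It was 0.242 for TFAP2C clone AW462670 (34 embryos), against a median of 0.635 over all tested clones. Differences between single embryos of a group were thus little repeated for these clones, and the group means carry what they show.

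Within groups the clones varied largely apart from each other. The correlation of embryo deviations was -0.053 between the GATA3 clones (41 embryos) and 0.329 between the TFAP2C clones (34 embryos). Among the GATA2 clones it was 0.131, 0.228 and 0.164 (43 embryos each). The highest values over all pairs of tested members were 0.499, between GATA2 clone AW464010 and TFAP2C clone AW465006, and 0.437, between GATA2 clone BF043343 and GATA3 clone BF041614 (43 embryos each). These points share arrays and dyes, and the values are a description.

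The 3 clones of other genes most like each member were found by the same correlation. They came from 3874 to 4105 clones measured together with the member in at least 30 embryos. Only 18 clones of other trophectoderm transcription factors were tested, so few of these could appear among the matches. GATA3 clone BF041614 was followed by HK3 (0.514), RDH10 (0.502) and SYS1 (0.502), and BF046526 by CPNE1 (0.729), HSPB8 (0.662) and YIPF6 (0.633). TFAP2C clone AW462670 was followed by BPI (0.630), SEMA4B (0.597) and JUND (0.555), and AW465006 by MIA (0.556), RESTB (0.548) and BAG4 (0.546). GATA2 clone BF043343 was followed by PERP (0.560), SSR1 (0.559) and AVEN (0.503), and AW464010 by CWC15 (0.540), LYVE1 (0.53) and the TFAP2C clone AW465006. DLX3 was followed by PPP1R35 (0.766), TLE3 (0.676) and TSR2 (0.674). HAND1 clone AW462826 was followed by CD9 (0.845), TRANK1 (0.708) and TRAF2 (0.681). For BF041614, AW464010 and AW462670 the matches rest on deviations that were little repeated between the dyes.

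The closest match of any member was that of GATA2 clone AW462109 with COP1 (0.893, 43 embryos), before GALNT2 (0.857) and CHKA (0.752). The COP1 rows stand directly beside those of AW462109 in the table. Over 2386 pairs of neighbouring clones the median correlation was 0.142, and 4 pairs (0.168%) had a higher one than this pair. Whether the spots also lie side by side on the slide was not tested.

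Other transcription factors of the trophectoderm were counted in the same way. Of the 34 genes listed, 19 were on the array and 16 were tested, by 18 clones. In IVF embryos 4 clones were higher and 6 lower than in AI (median -0.11), and in IVD embryos 5 were higher and 3 lower than in AI (median 0.05). Between IVF and IVD, 3 were higher and 8 lower (median -0.23). Over all tested clones the shares called higher and lower were 20.3% and 17.7% for IVF against AI, 24.9% and 21.3% for IVD against AI, and 22.5% and 24.8% for IVF against IVD. ID2, a helix-loop-helix inhibitor of the outer cells, was lower in IVF than in AI (-1.01 ± 0.13, adjusted p = 1.07e-07), as were STAT3, which carries cytokine signals (-1.39 ± 0.19, adjusted p = 3.01e-07), the AP-1 subunit JUNB by its clone BF041874 (-0.94 ± 0.16, adjusted p = 1.2e-05) and the epithelial factor GRHL2 (-0.28 ± 0.08, adjusted p = 0.00556). The other JUNB clone, AW463439, did not pass (-0.10, adjusted p = 0.644).

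CITED2, a coactivator partner needed in the mouse placenta, had the pattern of the leading GATA3 and TFAP2C clones. It was higher in IVD than in AI by 1.15 ± 0.12 (adjusted p = 4.88e-10), and lower in IVF than in IVD (-0.95 ± 0.12, adjusted p = 1.16e-08). KLF6 (clone AW461405) was also higher in IVD than in AI (0.49 ± 0.10, adjusted p = 0.000132), while JUNB by its clone AW463439 (-1.14 ± 0.16, adjusted p = 1.09e-07) and STAT3 (-0.78 ± 0.19, adjusted p = 0.000954) were lower. The other clones did not pass there, KLF6 BM366017 at 0.51 (adjusted p = 0.0598) and JUNB BF041874 at -0.38 (adjusted p = 0.0521). KLF4 was lower in IVF than in IVD (-1.07 ± 0.18, adjusted p = 3.26e-06), as was GRHL2 (-0.45 ± 0.08, adjusted p = 1.21e-05), and JUNB clone AW463439 was higher (1.05 ± 0.16, adjusted p = 4.41e-07). JUNB clone BF041874 had the opposite sign and was lower in IVF than in IVD (-0.56 ± 0.16, adjusted p = 0.00349).

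Of 14 paralogues of the 5 factors, only TFAP2A was tested, by 1 clone. It was lower than AI in both IVF (-0.64 ± 0.19, adjusted p = 0.00839) and IVD (-0.63 ± 0.20, adjusted p = 0.00794), opposite in sign to TFAP2C clone AW462670 in IVD. Of 22 upstream signalling genes of the Hippo, BMP and FGF pathways, 3 were tested. SMAD1, which carries BMP signals to the nucleus, was higher in IVD than in AI (1.27 ± 0.20, adjusted p = 2.53e-06) and lower in IVF than in IVD (-1.40 ± 0.20, adjusted p = 2.07e-07). The others, LATS2 and FGFR2, passed in no comparison.

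Trophoblast products and trophectoderm marker genes, which hold many known targets of such factors, were tested by 33 clones of 22 genes. Between IVF and AI, 5 clones were higher and 8 lower (median -0.23). Between IVD and AI, 8 were higher and 7 lower (median 0.21). Between IVF and IVD, 4 were higher and 12 lower (median -0.18). The shares over all tested clones are those given above.

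The smallest adjusted p between IVD and AI belonged to the epithelial cadherin CDH1 (1.16 ± 0.12), to PTGS2, an enzyme of prostaglandin synthesis (1.03 ± 0.14), to the pregnancy-associated glycoprotein PAG8 by its clone AW462219 (0.81 ± 0.14) and to the keratin KRT8 (-0.81 ± 0.15). IVF embryos were lower than IVD embryos in CDH1 (-1.14 ± 0.11), PTGS2 (-0.91 ± 0.14) and the water channel AQP3 by its clone BF040026 (-0.68 ± 0.13), and higher in the desmosomal cadherin DSC2 (1.46 ± 0.25). The smallest between IVF and AI belonged to the endocytic adaptor DAB2 (-1.39 ± 0.25), the placental lactogen gene CSH2 by its clone AW463978 (1.02 ± 0.22), the steroid-synthesis enzyme CYP11A1 (0.41 ± 0.11) and AQP3 clone BF040026 (-0.47 ± 0.13). The adjusted p of these 12 changes ran up to 0.0043. Other clones of these genes differed in size. PAG8 clone AW462513 was 0.11 for IVD minus AI (adjusted p = 0.573), and CSH2 clone AW465564 was 0.20 for IVF minus AI (adjusted p = 0.226). AQP3 clones BF040595 and BF041834 were also lower in IVF than in IVD (-0.54 and -0.43, adjusted p = 0.000391 and 0.0111), but not in IVF than in AI (-0.28 and -0.33, adjusted p = 0.0701 and 0.0577).

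Markers of other cells were counted as well. The list for oviduct and endometrium was represented only by 5 clones of VIM, COL1A2 and DCN. Of these, 1 was higher and 1 lower in IVF than in AI, and 0 higher and 3 lower in IVD than in AI. Between IVF and IVD, 3 were higher and 0 lower. The embryo medians of this list lay far below the reference throughout, at -4.38 to -3.35 in IVF, -5.42 to -4.01 in IVD and -4.72 to -4.07 in AI. Of 6 primitive endoderm clones, 1 was higher and 2 lower in IVF than in AI, 1 higher and 3 lower in IVD than in AI, and 1 higher and 2 lower in IVF than in IVD. Both SALL4 clones were higher in IVF than in AI, and 1 was higher in IVD than in AI. Between IVF and IVD the SALL4 clones were called in opposite directions. CD14, the only blood and immune clone tested, was called in no comparison. Of 2 cumulus and granulosa clones, 1 was higher and 0 lower in each comparison. Each list is small, and the shares over all tested clones stand above. The part of these markers in the differences of the 5 factors was not tested.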

How the data were processed

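The authors deposited one table of log2 ratios, with 16416 rows and 86 arrays (per the file headers); their image analysis and any correction or normalization were not given in the sources used here. Values that were empty (280751), the word null (3308) or at a common ceiling (16) were missing, 20.1% of the cells. Array medians ran from -2.22 to 1.06, so the median of the 5558 rows with a value on all arrays was subtracted from each array; the sign was turned where Cy3 marked the embryo, and an embryo's 2 arrays were averaged. Names came from the platform annotation (11196 rows with 1 symbol, 190 with several, 5030 not listed; 11182 matched the RefSeq table of assembly ARS-UCD2.0, all 5 genes among them). Rows of one clone were averaged.

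The comparisons used limma 3.58.1 (R 4.3.3; two-sided, empirical Bayes, all 43 embryos, Benjamini-Hochberg adjustment over all 6908 clones, threshold 0.05), which was tested on simulated data. All adjusted p-values are from limma. Differences between clones of one gene were fitted over embryo-wise differences, adjusted over 693 pairs. All member clones are named, of each list at most the 4 clones with the smallest adjusted p per comparison, and the 3 most like clones of each member. The members, lists and tests were chosen with earlier results of these data known. Centring, normalization, dye, filters, blocks and left-out embryos were varied as alternatives. Figures were drawn with matplotlib 3.10.9.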

Additional observations from a re-analysis of the deposited data

How the results depend on the processing

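Each fit was repeated under 15 alternatives and with each embryo left out in turn; the 2 that take only the first or the second row of a clone were chosen after seeing the data. The differences of GATA3 clone BF041614 and TFAP2C clone AW462670 between IVD and each other group, and those of GATA2 clone AW464010 (0.33 to 0.52) and GATA3 clone BF046526 (0.88 to 1.75) between IVF and AI, kept direction and call under all alternatives in which they were tested. The number of member clones called between IVF and AI was 2, but 4 with the embryo in Cy3 only, 1 of 5 clones among those measured in every embryo, and 0 of 5 genes when a gene's clones were averaged. Between IVD and AI it was 4, but 2 with a replicate block and 2 of 5 genes averaged. With embryos left out in turn it was 2 to 3 (IVF against AI), 4 in each case (IVD against AI) and 4 to 5 (IVF against IVD). The split into higher and lower calls between IVD and AI was 3 and 1, but 5 and 0 with values as given and 3 and 2 with quantile normalization. Between IVF and IVD it was 1 and 3, but 0 and 3 as given and 3 and 2 with quantile normalization. Averages over a gene's clones mix in rows measured only in IVD: for HAND1 they gave -0.54 between IVF and IVD (adjusted p = 0.00501).

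Differences that turned in sign did so without a call, unless a p is given. As given they were, for IVD minus AI, GATA2 BF043343 0.19 and HAND1 0.056, and, for IVF minus IVD, GATA2 AW464010 -0.10 and DLX3 -0.13. Quantile normalization gave GATA2 BF043343 0.39 for IVF minus IVD (adjusted p = 0.000944). In Cy3 only, GATA2 BF043343 was 0.21 for IVD minus AI, and GATA3 BF046526 -0.021 and DLX3 -0.17 for IVF minus IVD. In Cy5 only, GATA2 BF043343 was 0.081, TFAP2C AW462670 -0.022 and HAND1 0.077 for IVF minus AI, TFAP2C AW465006 -0.15 and DLX3 -0.058 for IVD minus AI, and GATA2 AW464010 -0.090, GATA2 BF043343 0.40 (adjusted p = 0.00564) and HAND1 0.18 for IVF minus IVD. The replicate block gave DLX3 -0.14 and HAND1 0.10 for IVD minus AI. It also ended the calls of GATA2 AW462109 (-0.28) and AW464010 (0.26) there and of TFAP2C AW465006 between IVF and IVD (-0.45). Between IVF and IVD, GATA3 BF046526 passed (0.90, adjusted p = 0.0234). The labels do not say whether equal numbers pair embryos. Same-numbered embryos correlated at -0.198 to 0.215. Best with their own number were 1 of 7 (IVF against AI), 2 of 5 (IVD against AI) and 1 of 9 (IVF against IVD). These are too few to decide on pairing. With the clusters by dye bias as a block, GATA2 AW462109 was -0.027 for IVF minus AI and HAND1 0.045 for IVD minus AI, and both calls of GATA2 AW462109 ended (-0.31 and 0.29), while HAND1 for IVF minus AI (-0.39) and TFAP2C AW465006 for IVD minus AI (0.74) passed. Without IVD embryos 12_1 to 12_4, DLX3 was -0.16 for IVD minus AI. The first row alone gave GATA2 BF043343 0.020 and the second row DLX3 -0.0013 for IVD minus AI. With single embryos left out, the ranges that crossed 0 were -0.033 to 0.066 for GATA2 AW462109 (IVF minus AI), -0.11 to 0.0083 for GATA2 BF043343 (IVD minus AI), and -0.012 to 0.14 for DLX3 and -0.10 to 0.0061 for HAND1 (IVF minus IVD). The causes were not tested. Spot intensities were not used here, so signal over background is unknown.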
